A study of Homo sapiens with 6 samples.

Results

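The genes described here are GAS5, SNHG1, SNHG5 and ZFAS1, 4 long noncoding RNA genes whose introns hold box C/D small nucleolar RNAs (snoRNAs). They were chosen by name and read as fixed hg19 intervals on their own strand, 4 regions of the 174735 regions with any event in the series. GAS5 lies on chromosome 1, minus strand, 173833038 to 173838020. SNHG1 lies on chromosome 11, minus strand, 62619460 to 62623386. SNHG5 lies on chromosome 6, minus strand, 86386725 to 86388451, and ZFAS1 on chromosome 20, plus strand, 47894715 to 47905797. The intervals span 4983, 3927, 1727 and 11083 nt in that order, and exons and introns inside them were not assigned because no hg19 annotation was used here.

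The libraries are iCLIP libraries from BEAS2B, an established human bronchial epithelial cell line. In iCLIP, ultraviolet light fixes proteins to the RNA they touch, and the position next to each crosslink is read as 1 event. In the QKI-5 group, 3 libraries were prepared with 10 μg of antibody to QKI-5, a nuclear isoform of the RNA-binding protein Quaking. In the control group are 3 libraries whose labels give none as the CLIP antibody. The protocol text is the same for all 6 and names the antibody, so the control status rests on the title and on that antibody field. Per the labels, all 6 came from cells irradiated at 150 mJ/cm2, lysed and treated with RNase A at a high or a low dilution, and no genotype or drug is named for any of them. Whether the replicates came from different cultures is not stated, and the p-values below therefore refer to variation among these 6 libraries, which may be technical.

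Box C/D snoRNAs guide the methylation of ribosomal RNA, and in vertebrates most are cut out of introns of host genes after splicing. The spliced host RNAs of this family are exported, and GAS5 RNA is known to be degraded when it is translated. SNHG1, SNHG5 and ZFAS1 have mainly been studied as long noncoding RNAs in tumour cells. QKI-5 regulates splicing and binds an ACUAA-like element. In the RefSeq table of GRCh38.p14, 10 SNORD genes lie inside GAS5, from SNORD74 at the 5′ side to SNORD81 at the 3′ side. SNHG1 holds 8, from SNORD25 to SNORD22. SNHG5 holds SNORD50B and SNORD50A, and ZFAS1 holds SNORD12C, SNORD12B and SNORD12 in that order. Only names and order were taken from that table, because its build is not the build of the files.

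Host genes of this family are known to start their transcripts with a run of pyrimidines, and the first 50 transcribed bases of each host are shown because the family is known for this kind of start. They are from RefSeq, GRCh38.p14, 5′ to 3′, with the longest pyrimidine run that begins in the first 20 bases in capitals, or the first of those where runs tie in length, as in SNHG5.
GAS5: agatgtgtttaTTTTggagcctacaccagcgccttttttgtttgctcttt
SNHG1: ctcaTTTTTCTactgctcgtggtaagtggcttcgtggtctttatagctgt
SNHG5: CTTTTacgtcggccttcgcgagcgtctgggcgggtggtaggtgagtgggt
ZFAS1: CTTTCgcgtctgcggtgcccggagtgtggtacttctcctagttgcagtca
The first 10 bases held 9 pyrimidines in SNHG1 and 8 each in SNHG5 and ZFAS1, against a median of 5 over 35116 starts, of which 21.1% held at least 7. The listed GAS5 start held 5, and whether GAS5 transcripts begin at that listed start in these cells was not tested. The motif ACTAA was in none of these 4 stretches, and 1.74% of all starts held it. It was also in none of the 4 promoter sequences (250 bases before to 50 after the start) on either strand, where 21.6% of all promoters held it. At such shares, finding it in none of 4 sequences says little. The bases before the start and the opposite strand are not part of these transcripts. The RNA under the crosslink events was not searched for the motif, so no conclusion on binding is drawn.

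At the 5′ ends of the hg19 intervals there were few events in absolute number. The first 100 nt of SNHG1 held 9, 3 and 0 events in QKI-5 replicates 1, 2 and 3, and those of SNHG5 held 4, 4 and 0. As mean shares of the gene's QKI-5 events these were 0.626% in SNHG1 and 8.05% in SNHG5, so the SNHG5 share was not small. The first 100 nt of GAS5 and of ZFAS1 held 0 events in every library, and the first 900 nt of GAS5 held 3 events in all. No control event fell in the first 100 nt of any of the 4 intervals. The controls held 95 events in all of SNHG1 and 2 in all of SNHG5, so their absence there is not informative.

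Library depth sets how finely each gene can be read. The QKI-5 libraries held 2143279 to 7283982 events and the controls 29810 to 137926. Levels are given as EPM, events per 1000000 events of the library. A single event is 0.137 to 0.467 EPM in the QKI-5 libraries and 7.25 to 33.5 EPM in the controls. Over the pooled libraries of a group, the floor of 3 events is 0.244 EPM for QKI-5 and 14.3 EPM for the controls. All intervals below are 95% exact intervals and cover counting error only, since the sources used here do not say whether PCR copies of 1 cDNA were merged.

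The comparison asked whether these RNAs made up more or less of the crosslinked RNA with the QKI-5 antibody than without it. GAS5, SNHG1 and ZFAS1 each held a lower mean EPM in QKI-5 libraries than in controls, but the groups overlapped for each of them. None was called in the main edgeR fit, but SNHG1 and GAS5 were called lower in some alternative fits given below. Without QKI-5 replicate 2 all 3 were called lower. The permutation test could call none of them, because its smallest possible p with 3 libraries per group is 0.1. GAS5 and SNHG1 held the most events, ZFAS1 an intermediate number and SNHG5 few. In GAS5, SNHG1 and ZFAS1 the strongest positions lay in short blocks that held events of both groups. A block near the 3′ end of GAS5 held 332 QKI-5 events and 1 control event. Over the pooled libraries these are 27.0 and 4.78 EPM, and the control level is under the floor of 14.3 EPM. This block was picked for its high ratio, under a block rule chosen after the data were seen, so the contrast is no support.

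For GAS5 the QKI-5 libraries held 149.8, 313 and 116 EPM (replicates 1, 2 and 3), against 479, 723 and 268 EPM in controls 1, 2 and 3. These values rest on 1091, 670 and 335 QKI-5 events and on 66, 30 and 8 control events. The groups overlapped, because QKI-5 replicate 2 lay above control replicate 3. The mean was 193 ± 105 EPM with the antibody and 490.1 ± 228 EPM without it (SD, n = 3 each, two-sided exact permutation p = 0.2, where the smallest possible p is 0.1). Over pooled events the QKI-5 to control ratio was 0.342 (95% interval 0.281 to 0.421).

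SNHG1, first described as the host of SNORD22, reached 117, 170.3 and 91.4 EPM in the QKI-5 libraries, against 457, 699 and 100.6 EPM in the controls. The events behind them were 851, 365 and 264 with the antibody and 63, 29 and 3 without it. Control replicate 3, the shallowest library, lay within the QKI-5 range, and the other controls lay far above it. The mean was 126 ± 40.3 EPM with the antibody and 419 ± 301 EPM without it (SD, n = 3 each, exact permutation p = 0.3). The pooled ratio was 0.265 (0.215 to 0.329). By replicate number the QKI-5 to control ratio was 0.256, 0.244 and 0.908, where the last ratio rests on 3 control events.

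ZFAS1, which holds the SNORD12 family and lies next to the 5′ end of ZNFX1, reached 111, 172 and 65.4 EPM in the QKI-5 libraries. The controls held 203, 145 and 168 EPM, from 28, 6 and 5 events, beside 806, 368 and 189 QKI-5 events. QKI-5 replicate 2 fell within the control range. The means were 116 ± 53.3 EPM with the antibody and 172 ± 29.4 EPM without it (SD, n = 3 each, exact permutation p = 0.3), and the pooled ratio was 0.594 (0.432 to 0.839).

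SNHG5, the host of the SNORD50 pair, had 6.73, 11.7 and 5.54 EPM in QKI-5 replicates 1, 2 and 3, from 49, 25 and 16 events. Its 2 control events both fell in control replicate 1 (14.5 EPM), and controls 2 and 3 had 0 events, where the floor of 3 events is 72.3 and 100.6 EPM and the exact upper limits are 88.9 and 124 EPM. The mean was 7.98 ± 3.25 EPM with the antibody and 4.83 ± 8.37 EPM without it (SD, n = 3 each, exact permutation p = 0.6). The pooled ratio, which pointed the other way, was 0.764 with an interval of 0.206 to 6.41. A difference in either direction was therefore not detectable at this depth.

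**Figure D1:**
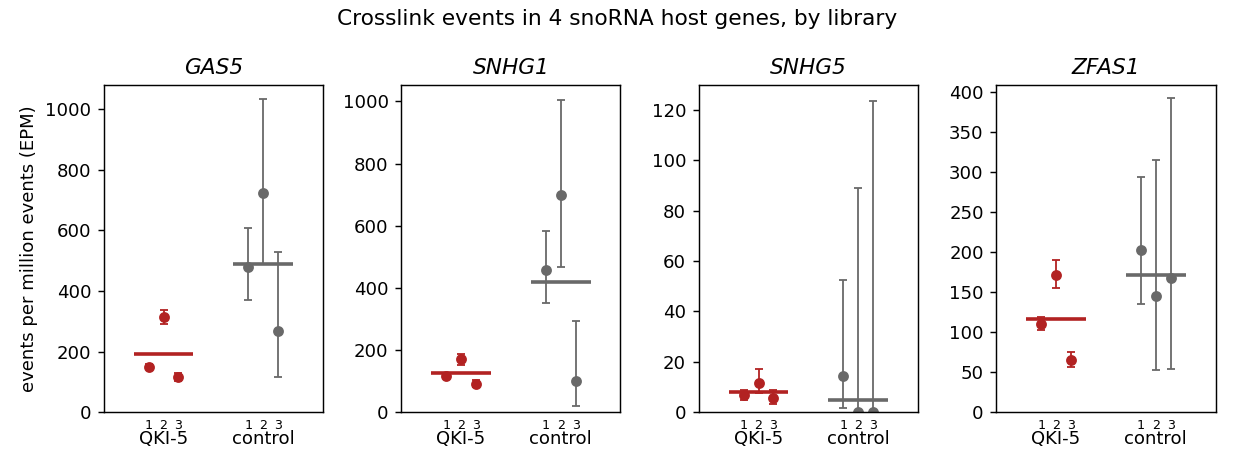
Events per 1000000 events, EPM (vertical axes, each from 0) in the 3 QKI-5 and 3 control libraries for each host gene; points are libraries numbered by replicate, bars 95% exact binomial intervals and lines group means. GAS5 and SNHG1 have group means of 193 and 126 EPM with the antibody and 490.1 and 419 EPM without it, and the groups overlap in all 4 genes.

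Per length, the order of mean levels in the QKI-5 libraries was GAS5 with 38.7 ± 21.1 EPM per kb, SNHG1 with 32.1 ± 10.3, ZFAS1 with 10.5 ± 4.81 and SNHG5 with 4.62 ± 1.88 (SD, n = 3). In the controls SNHG1 came first with 107 ± 76.7 EPM per kb, then GAS5 with 98.3 ± 45.7, ZFAS1 with 15.5 ± 2.65 and SNHG5 with 2.80 ± 4.85. GAS5 and SNHG1 were next to each other in rank in these orders, and their difference was not tested. By library, GAS5 and SNHG1 held 30.1 and 29.8, 62.7 and 43.4, and 23.3 and 23.3 EPM per kb in QKI-5 replicates 1, 2 and 3. In control replicates 1, 2 and 3 they held 96.0 and 116, 145 and 178, and 53.9 and 25.6 EPM per kb. The summed level of the 4 genes was 384, 666 and 278 EPM with the antibody (replicates 1, 2 and 3), against 1153, 1567 and 537 EPM in the controls. The groups overlapped in this sum (means 443 ± 201 and 1086 ± 519 EPM, exact permutation p = 0.2).

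QKI-5 replicate 2 had the highest EPM of its group in all 4 genes, and control replicate 2 the highest of its group in GAS5 and SNHG1. The values without QKI-5 replicate 2 are given with the fits below.

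The same comparison was fitted across the genome with the edgeR quasi-likelihood test, on the 4 genes and on strand-specific 10 kb windows for all other events. Of the 29958 regions tested, 227 (0.758%) were called higher and 32 (0.107%) lower at an adjusted p under 0.05. The split of calls moved with the scaling: with library totals 23 were higher and 58 lower. SNHG5 did not pass the filter on low counts, and 0 of the 3 genes tested were called. Beside that count of 0, 1 of the 3 had an unadjusted p under 0.05, 0 of 3 were called by the DESeq2 Wald test, and 5522 of all regions had an unadjusted p under 0.05.

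The log2 fold change (QKI-5 over control) of SNHG1 was -1.17 (SE 0.44, adjusted p = 0.149 by edgeR). That of GAS5 was -0.69 (SE 0.46, adjusted p = 0.433) and that of ZFAS1 -0.04 (SE 0.47, adjusted p = 0.977). The median region stood at 0.78 with the TMM factors used and at 0.22 with library totals, so these values are also given relative to the median region. Relative to it, SNHG1 stood at -1.95, GAS5 at -1.48 and ZFAS1 at -0.82 with TMM factors, and at -2.03, -1.60 and -0.87 with library totals. Of all tested regions, 1.96% had a lower fold change than SNHG1, 6.46% a lower one than GAS5 and 21.4% a lower one than ZFAS1. The median and these percentages also depend on the filter. Of the tested regions, 2227 had 0 control events and passed it through QKI-5 events alone. The values relative to the median are therefore a description only.

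Another scaling, or 1 library fewer, changed which of these genes were called. With library totals the log2 fold change of SNHG1 was -1.81 (adjusted p = 0.00365 by edgeR). With each position counted once per library, SNHG1 was at -2.00 (adjusted p = 3.2e-05 by edgeR) and GAS5 at -1.80 (adjusted p = 9.4e-04). Without QKI-5 replicate 2, SNHG1, GAS5 and ZFAS1 were at -2.16, -1.98 and -1.17 and all 3 passed (adjusted p = 0.0216, 0.0381 and 0.045 by edgeR), in a fit of 951 regions of which 89 were lower. Without control replicate 1 they were at -0.29, 0.079 and 1.12, in a fit whose median region stood at 6.69. Over all alternatives run, the adjusted p of SNHG1 ranged from 3.2e-05 to 0.861, that of GAS5 from 9.4e-04 to 0.912 and that of ZFAS1 from 0.045 to 0.995.

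**Figure D2:**
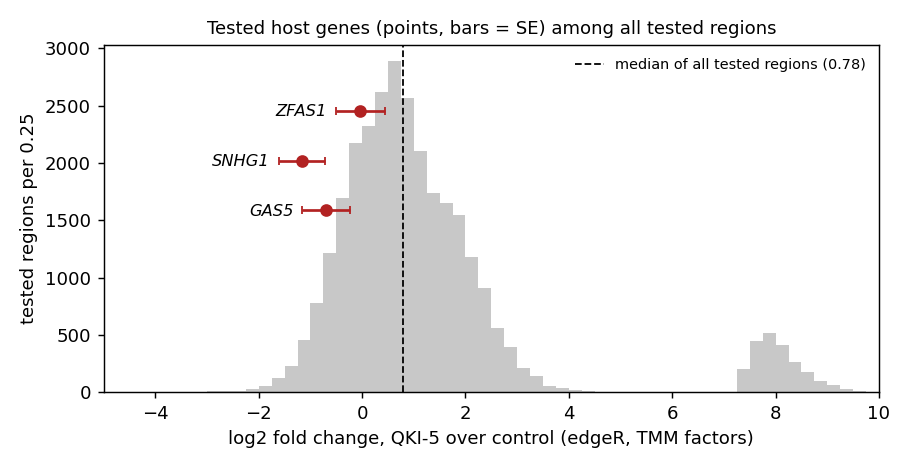
Distribution of log2 fold changes (QKI-5 over control, horizontal axis) over the tested regions of the genome (grey bars, number of regions per step of 0.25), with SNHG1, GAS5 and ZFAS1 as points whose heights are arbitrary and whose bars are SE. All 3 points lie left of the dashed median of 0.78; the separate hump above 6 on the right consists of 2227 regions with 0 control events.

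Events repeated at 1 position were common in GAS5 and SNHG1. GAS5 held 3.37, 3.70 and 3.10 events per occupied position in QKI-5 replicates 1, 2 and 3, where the whole libraries held 1.39, 1.72 and 1.75. In the controls GAS5 held 1.61, 1.67 and 1.14 events per position, beside 1.30, 1.61 and 1.62 in the whole libraries. ZFAS1 in the QKI-5 libraries held 1.80, 2.18 and 1.69. The ratio of events to positions depends on depth, so the values of the 2 groups are not compared.

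Events followed the strand of each gene. On the opposite strand GAS5 held 7 events over the QKI-5 libraries (2, 0 and 5) beside 2096 on its own strand, and SNHG1, SNHG5 and ZFAS1 held 0 beside 1480, 90 and 1363. No control event lay on the opposite strand of any of the 4. On the gene strand, the 5 kb before GAS5, SNHG5 and ZFAS1 held 0 events in every library, and the 5 kb before SNHG1 held 1 QKI-5 event. The 5 kb after the genes held 53 QKI-5 events at GAS5, 22 at SNHG1, 73 at SNHG5 and 85 at ZFAS1. As a density in QKI-5 libraries these downstream stretches held 0.786 ± 0.186, 0.411 ± 0.210, 1.17 ± 0.178 and 1.40 ± 0.0541 EPM per kb (SD, n = 3), each below the density of the gene before it. In the controls the downstream stretches held 2, 1, 0 and 2 events.

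Within each gene the events were concentrated. In GAS5, 4 of 50 bins of 100 nt were enough for 50% of the mean QKI-5 share, in SNHG1 4 of 40, in SNHG5 4 of 18 and in ZFAS1 9 of 111. The 3 strongest bins of each gene, chosen on the QKI-5 libraries and so given with no test, held 41.95 ± 7.70% of GAS5 events and 46.4 ± 10.8% of SNHG1 events in those libraries. They held 45.4 ± 14.4% in SNHG5 and 38.3 ± 7.84% in ZFAS1 (SD, n = 3). In the controls the same bins held 58.1 ± 15.9% of GAS5 events, 39.4 ± 15.7% of SNHG1 events and 51.4 ± 12.2% of ZFAS1 events (SD, n = 3). They held both control events of SNHG5.

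The profiles of QKI-5 libraries were alike in the 3 genes with many events. Between pairs of QKI-5 libraries, Pearson's r over the bin shares was 0.83 to 0.94 in GAS5 (50 bins), 0.77 to 0.86 in SNHG1 (40 bins) and 0.82 to 0.89 in ZFAS1 (111 bins). In SNHG5 it was -0.07 to 0.77 (18 bins). Between a QKI-5 library and a control it was 0.43 to 0.86 in GAS5, 0.15 to 0.94 in SNHG1 and 0.41 to 0.92 in ZFAS1. These values describe bins that share a library and its depth, and the lowest came with control replicate 3 in SNHG1 and ZFAS1 and with control replicate 2 in GAS5.

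**Figure D3:**
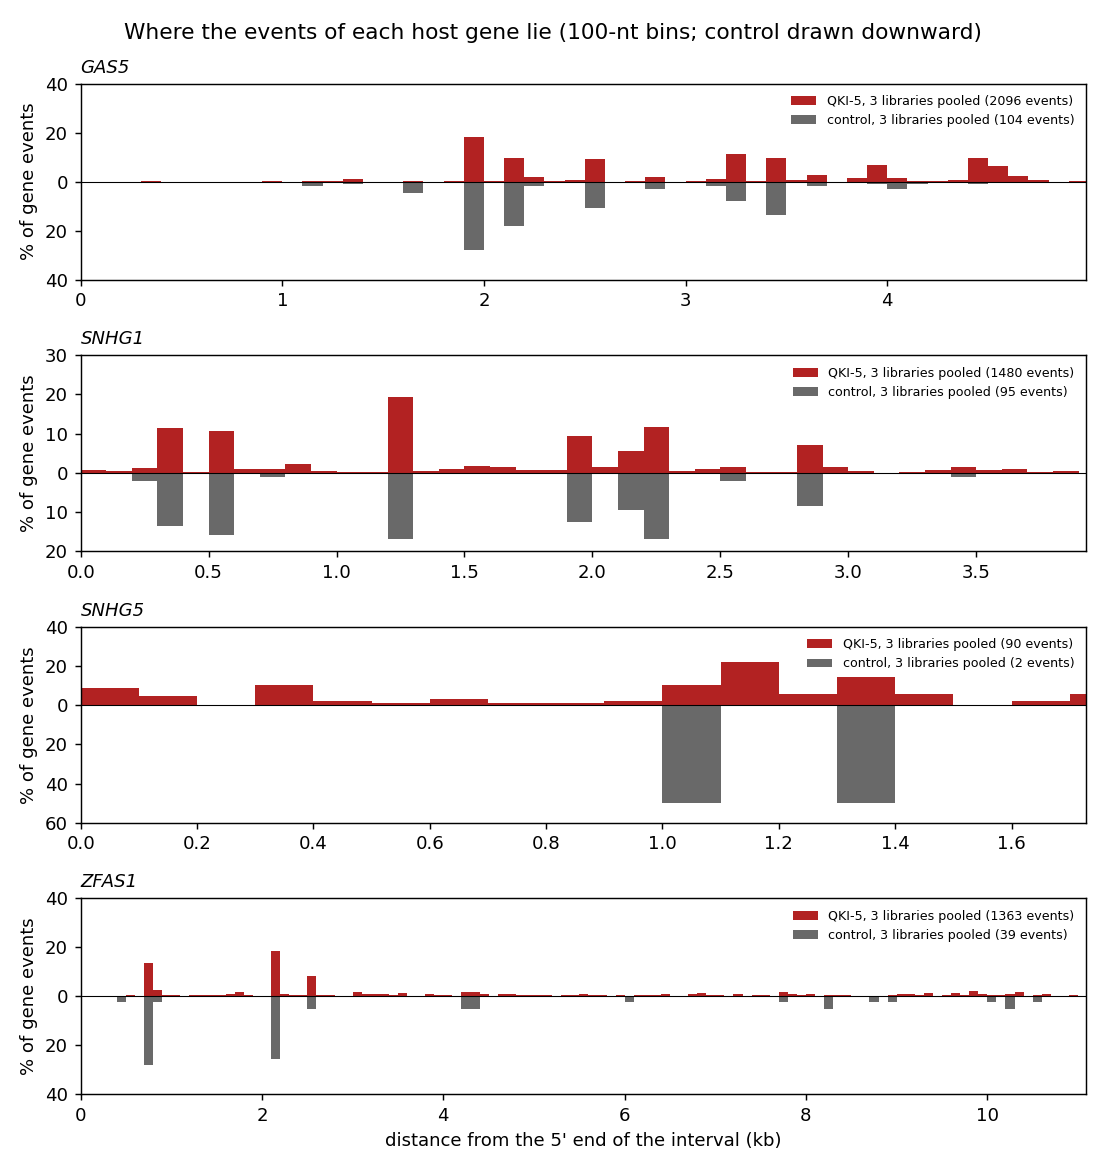
Share of each gene's events (vertical axes, percent; QKI-5 upward, control downward, 3 libraries pooled in each) in 100-nt bins along the interval (horizontal axes, kb from the 5′ end). Narrow peaks recur at the same distances in both groups in GAS5, SNHG1 and ZFAS1, while the GAS5 peaks beyond 4.4 kb are seen in QKI-5 libraries with 1 control event. That stretch was singled out after the data were seen, so the contrast is no support. SNHG5 has 2 control events in all.

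The strongest bin of GAS5, 1901 to 2000 nt from its 5′ end, held 15.9, 23.4 and 14.3% of the gene's events in QKI-5 replicates 1, 2 and 3. In the controls it held 21.2, 43.3 and 25%, where it came first in control replicate 2, joint first in control replicate 3 and behind the bin at 2101 to 2200 nt in control replicate 1. The bin at 3201 to 3300 nt held 9.07, 11.2 and 19.1% in QKI-5 libraries and 9.09, 0 and 25% in controls. The bin at 2101 to 2200 nt held 8.98, 8.06 and 15.8% in QKI-5 libraries and 25.8, 0 and 25% in controls. The bin at 3401 to 3500 nt, with a mean share of 13.2% in the controls, held 10.5, 9.25 and 7.46% in QKI-5 libraries, against 13.6, 13.3 and 12.5% in controls.

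In SNHG1 the strongest bin, 1201 to 1300 nt, held 17.6, 14.2 and 32.2% of events in QKI-5 libraries and 23.8, 3.45 and 0% in controls. The bin at 2201 to 2300 nt held 7.99, 18.4 and 14.4% against 15.9, 20.7 and 0%, and the bin at 301 to 400 nt held 11.6, 10.96 and 11.7% against 17.5, 3.45 and 33.3%. The bin with the highest mean control share, 501 to 600 nt, held 13.98, 7.40 and 4.17% in QKI-5 libraries and 11.1, 24.1 and 33.3% in controls, where the last value is 1 of 3 events. No bin of SNHG1 was the first in all 3 libraries of either group.

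In ZFAS1 the first bin by mean share, 2101 to 2200 nt, held 20.6, 16.6 and 12.2% in QKI-5 libraries and 25, 33.3 and 20% in controls. The bin at 701 to 800 nt held 11.2, 20.7 and 8.99% against 32.1, 16.7 and 20%, and that at 2501 to 2600 nt held 8.81, 7.61 and 8.47% against 7.14, 0 and 0%. The bin at 4301 to 4400 nt held 26 QKI-5 events, and its control share rests on 2 events of control replicate 3. In SNHG5 the strongest bin, 1101 to 1200 nt, held 10, 8 and 2 events in QKI-5 replicates 1, 2 and 3 and 0 in the controls. Its 2 control events lay in the bins at 1001 to 1100 and 1301 to 1400 nt, which held 9 and 13 QKI-5 events.

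Bins were also tested across the genome with edgeR, where 1787 strand-specific 100-nt bins passed the filter. Of these, 49.5% were called higher and 3.19% lower, around a median log2 fold change of 2.62. Of the 16 bins of the 4 genes that were tested, 6 lay in GAS5, 7 in SNHG1, 3 in ZFAS1 and none in SNHG5. Their median log2 fold change was -0.92, 15 of the 16 lay below the median of all tested bins, 2 were called lower and 1 was called higher. A bin could pass the filter through the group where it was high, so these counts are a description only. The share of bins called higher rested on the scaling: with library totals 10 of the 1787 bins were higher and 59 lower, and of the 16 bins 0 were higher and 2 lower.

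Both lower bins were in SNHG1. The bin at 501 to 600 nt stood at -1.79 on the log2 scale (SE 0.68, edgeR adjusted p = 0.0242), from 119, 27 and 11 events in QKI-5 libraries and 7, 7 and 1 in controls. The bin at 2101 to 2200 nt stood at -1.66 (SE 0.69, edgeR adjusted p = 0.0389), from 45, 25 and 12 events against 5, 4 and 0. Neither bin reached the level of the filter in all 3 QKI-5 libraries. Both passed it only with the help of control libraries, where they were high, so their calls are no support. The bin called higher was GAS5 4501 to 4600 nt, with 84, 24 and 29 events in QKI-5 libraries and 0 in every control. With no control event it could pass the filter and be called in that direction alone, so its call is no support, and no fold is given because its pooled level is under the floor of the controls. With any QKI-5 library left out, none of these 3 bins was tested. With any control left out, SNHG1 501 to 600 nt stood at -1.19 to -0.47 (edgeR adjusted p = 0.212 to 0.719). Likewise SNHG1 2101 to 2200 nt stood at -1.21 to -0.37 (edgeR adjusted p = 0.245 to 0.751). The DESeq2 Wald test called 1 bin of the 4 genes higher and 0 lower.

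At single-nucleotide resolution, runs of QKI-5 positions with gaps of at most 10 nt, at least 20 events and an event in every QKI-5 library were called blocks, a rule chosen after the data were seen. There were 12 blocks in GAS5, 6 in SNHG1, 1 in SNHG5 and 7 in ZFAS1, with a median width of 45 nt (7 to 118 nt). Whether they lie on the snoRNAs listed above was not tested, since snoRNA positions on hg19 were not used here. The blocks covered 10.5% of the length of GAS5 and held 91.9% of its pooled QKI-5 events and 91.3% (84.2 to 95.97%) of its control events. In SNHG1 they covered 6.85% of the length and held 74.5% of QKI-5 and 94.7% (88.1 to 98.3%) of control events. In ZFAS1 they covered 3.18% and held 49.9% of QKI-5 and 66.7% (49.8 to 80.9%) of control events. The 1 block of SNHG5, at 1092 to 1124 nt, held 28.9% of its QKI-5 events and 1 of its 2 control events.

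By library, SNHG1 blocks held 74.1, 80.0 and 68.2% of the gene's events in QKI-5 replicates 1, 2 and 3, against 95.2, 96.6 and 66.7% in the controls. The last value is 2 of 3 events, and it is the 1 control value inside the QKI-5 range. Outside the blocks SNHG1 had 377 QKI-5 events and 5 control events, and ZFAS1 had 683 and 13. In ZFAS1 the blocks held 50.6, 52.99 and 40.7% in QKI-5 libraries and 67.9, 50.0 and 80.0% in controls, and the groups overlapped.

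A control event was present in 22 of the 26 blocks. In those 22 the pooled QKI-5 to control ratio of EPM, given as a description, ran from 0.166 to 5.64. In GAS5 the block with the most QKI-5 events, at 1930 to 1974 nt, held 173, 157 and 48 events in QKI-5 libraries and 14, 13 and 2 in controls, a ratio of 0.221 (0.152 to 0.335). In SNHG1 the block at 1218 to 1273 nt, first by the same measure, held 150, 52 and 85 against 15, 1 and 0 events, a ratio of 0.305 (0.184 to 0.540). In ZFAS1 the first block, at 2146 to 2205 nt, held 171, 63 and 24 against 7, 2 and 1 events, a ratio of 0.438 (0.234 to 0.925). Blocks with few control events allow either direction, as in ZFAS1 at 2507 to 2562 nt, where 113 QKI-5 and 2 control events gave 0.960 (0.260 to 8.02).

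The highest of the 22 ratios was that of the GAS5 block at 4427 to 4544 nt. It held 215, 81 and 36 events in QKI-5 replicates 1, 2 and 3 and 1, 0 and 0 events in the controls. The pooled ratio was 5.64 with an interval of 1.01 to 223. Its control level of 4.78 EPM is under the floor of 14.3 EPM. The block is named here for its high ratio, so that ratio is no support. This block was the widest of the 4 genes, and it was the strongest block of GAS5 in QKI-5 replicate 1. Another GAS5 block at 4676 to 4694 nt held 35, 1 and 4 QKI-5 events and 0 control events.

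From 4401 nt to its 3′ end, a stretch chosen after the data were seen and so given with no test, GAS5 held 23.7, 14.2 and 12.8% of its events in QKI-5 replicates 1, 2 and 3. In the controls that stretch held 1 of 66, 0 of 30 and 0 of 8 events. The pooled shares were 18.9% (17.3 to 20.7%) with the antibody and 0.962% (0.0243 to 5.24%) without it. Every QKI-5 share lay above every control share, an order that the choice of the stretch favoured and that is no support. The exact upper limits were 8.16, 11.6 and 36.9% in controls 1, 2 and 3. That of control replicate 3 lay above every QKI-5 share. Counted as distinct positions the pooled shares were 21.0% and 1.52%. With 1 library left out, the QKI-5 share exceeded the control share by 13.0 to 18.5 percentage points, and with all libraries by 16.4. These differences reuse the chosen stretch and are no support either.

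**Figure D4:**
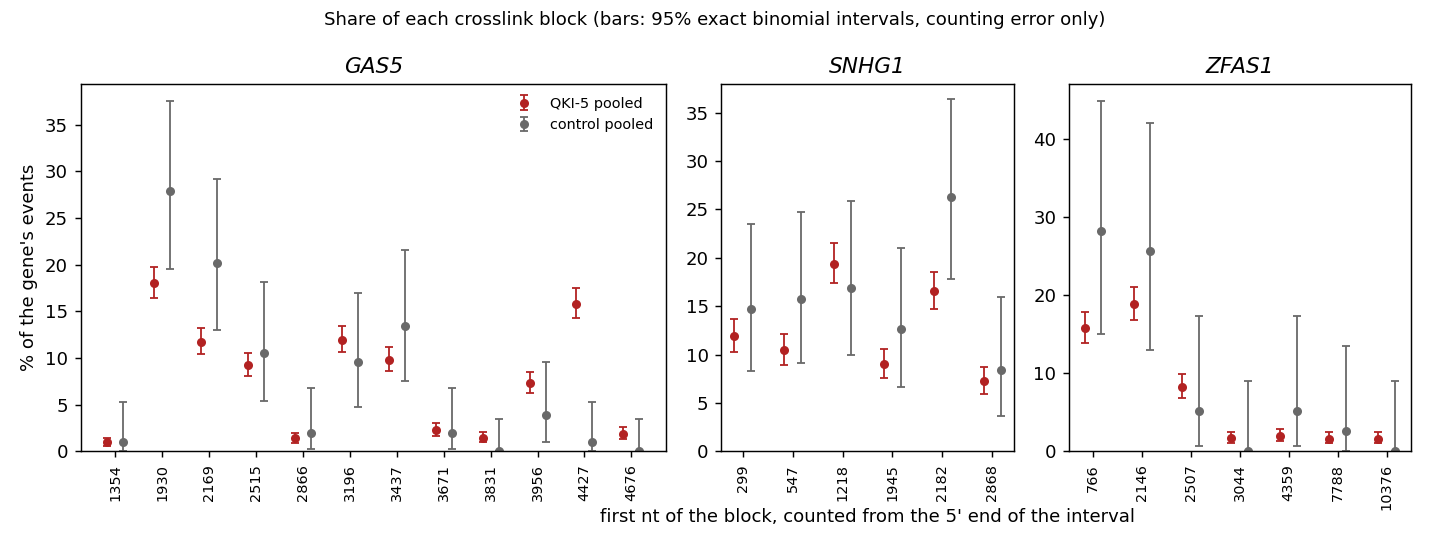
Share of the gene's events (vertical axes, percent) in each block of GAS5, SNHG1 and ZFAS1 for the pooled QKI-5 and pooled control libraries; bars are 95% exact binomial intervals and blocks are named by their first nt from the 5′ end. In the GAS5 block that starts at 4427 nt, named for its high ratio, the share was 15.8% with the antibody and 0.962% without it. The block at 1930 nt held 18.0 and 27.9%.

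Single positions recurred within blocks. In GAS5 the 2 strongest positions by mean QKI-5 EPM were neighbours, 173836063 and 173836064 on chromosome 1. They held 30, 40 and 5 and 32, 33 and 8 events in QKI-5 replicates 1, 2 and 3, against 6, 1 and 1 and 1, 4 and 0 in the controls. Position 173833524, next in rank and in the 3′ block, held 26, 33 and 0 QKI-5 events and 1, 0 and 0 control events. In SNHG1 the 2 strongest, 62622138 and 62622137 on chromosome 11, held 20, 7 and 16 and 20, 8 and 14 QKI-5 events, against 5, 0 and 0 and 1, 0 and 0 control events. The position 62623072 held 11, 15 and 8 against 1, 0 and 0.

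In ZFAS1 the strongest positions were less even across libraries. Position 47895501 on chromosome 20 held 7, 20 and 0 QKI-5 events, its neighbour 47895502 held 6, 15 and 4, and 47896883 held 17, 14 and 0. Over the 3 control libraries they held 2, 0 and 1 events in the same order. In SNHG5 no position exceeded 4 events in any library. QKI-5 replicate 2 alone set the mean of 2 of its 3 strongest positions, with 3 events each.

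Few positions were hit in every QKI-5 library, but in GAS5 and SNHG1 they carried much of the signal. In GAS5, 49 of 419 occupied positions were hit in all 3 QKI-5 libraries and held 44.4% of the gene's QKI-5 events. In SNHG1 37 of 381 did so with 44.2%, in ZFAS1 16 of 634 with 15.3%, and in SNHG5 0 of 54. Of the positions with a control event, 49 of 55 in GAS5, 48 of 52 in SNHG1 and 21 of 31 in ZFAS1 also held a QKI-5 event. These shares rise with depth and were not compared between genes.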

How the data were processed

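The deposited files list, for each of 6 iCLIP libraries, crosslink positions with a whole-number count of events, deposited without scaling to library size, as the totals show. The submitters' processing notes name cutadapt, Bowtie and the build hg19. Versions, and how PCR copies and reads with several alignments were handled, were not given by the sources used here, so reads shared with snoRNA copies elsewhere could be split or placed at these genes.

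Events were summed over the 4 intervals and, for all others, over strand-specific 10 kb windows, and over 100-nt bins. Both tables were tested with edgeR 4.0.16 (R 4.3.3, limma 3.58.1), glmQLFit and glmQLFTest, TMM factors, filterByExpr, library totals of all events and the group as the only term, with Benjamini-Hochberg adjustment over all tested rows. SE is the absolute log2 fold change over the square root of F. DESeq2 1.42.0, other scalings, window and bin sizes, distinct positions, the replicate block and each library left out were alternatives. Intervals and permutation tests were computed in scipy 1.17.1 (Python 3.11.15, pandas 2.3.3, numpy 2.4.6), and matplotlib 3.10.9 drew the figures.

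The named bins are the 3 with the highest mean share in either group and all called ones, the named positions the 3 with the highest mean QKI-5 EPM. The genes, lists and tests were chosen with earlier results of these data known. The lists of other snoRNA host genes, snoRNP proteins and cell type markers were not measured, because they need hg19 annotation that was not used here. The region most like ZFAS1 is not reported here.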

Additional observations from a re-analysis of the deposited data

How the results depend on the processing

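The controls' small totals limit every comparison, and SNHG5 did not pass the filter on low counts with all libraries. The cause of the changes below was not tested. The log2 fold change of SNHG1 was -1.81 with library totals and -2.00 with distinct positions, where it passed, and -2.16 to -0.29 with 1 library left out. GAS5 was at -1.80 with distinct positions, where it passed, and at -1.98 to 0.079 with 1 library left out. ZFAS1 was at 0.10 with the replicate block, 0.45 with no filter, 0.24 with 5 kb windows and -1.17 to 1.12 with 1 library left out. SNHG5 was at 0.75 with no filter (edgeR adjusted p = 0.861).

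The block on the replicate number left 0 regions called higher and 0 lower, 0 bins of the 4 genes called, 12 of 1787 bins of the genome higher and 1 lower, and changed no call on the 3 genes tested as whole intervals. Deviations of same-numbered libraries correlated at 0.0012, 0.10 and 0.072 over 29958 regions. QKI-5 replicates 2 and 3 each correlated best with the control of the same number. QKI-5 replicate 1 correlated best with control replicate 3 (0.055). These values do not settle whether the numbers pair the samples, and the labels do not say so.

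Regions called higher numbered 23 with library totals, 26 with distinct positions, 85 with DESeq2 size factors and 1484 with 5 kb windows, and 28 to 831 with 1 library left out. Regions called lower numbered 58, 66, 35 and 51 in the same order, 130 with the DESeq2 Wald test, 6 with no filter, and 8 to 89 with 1 library left out. Of the bins of the 4 genes, 0 were higher with library totals and with distinct positions. Lower were 0 with distinct positions, with the DESeq2 Wald test and with 50-nt bins, and 1 with 200-nt bins. With 1 library left out 0 were higher and 0 lower.

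With distinct positions the 3 strongest bins held 27.5% of GAS5, 31.0% of SNHG1 and 22.1% of ZFAS1, and with 200-nt bins 61.5% of SNHG5. The 26 blocks became 40 with at least 10 events, and 17 to 25 with 1 QKI-5 library left out. The lower QKI-5 mean of the 4 genes summed kept its direction in all 7 alternatives run, with differences of -917 to -402 EPM when 1 library was left out.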

Other observations

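Among all tested regions, the one nearest to GAS5 in level over the 6 libraries (Euclidean distance 0.74 on log2(EPM + 1)) was chromosome 4, plus strand, 76800001 to 76810000. Its QKI-5 libraries held 169.8, 349.9 and 117 EPM, against 776, 699 and 268 EPM in the controls. The region nearest to SNHG1 (distance 1.09) was chromosome 20, plus strand, 2630001 to 2640000, with 85.7, 146 and 71.6 EPM with the antibody and 689, 434 and 100.6 EPM without it. The region nearest to SNHG5 (distance 0.36) was chromosome 5, minus strand, 43450001 to 43460000, with 8.79, 12.6 and 5.54 EPM against 14.5, 0 and 0 EPM. These regions are named for their levels alone, and their genes were not assigned.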
